A study of Mus musculus with 21 samples.

Results

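The loci of 5 germ line genes, Prdm1, Nanos3, Ddx4, Dazl and Stk31, were followed through H3K4me1 in mouse embryonic stem cells. A region of the deposited table belonged to a locus when the table named that gene as its nearest gene and placed it within 50 kb of the gene's start site. This gave 38 of 186824 regions with levels, of which 25 lay at Prdm1, 1 at Nanos3, 3 at Ddx4, 5 at Dazl and 4 at Stk31. These 5 were among 21535 genes with at least 1 region in that window. Nanos3 is also given against the median of chromosome 8 and Dazl against the median of chromosome 17.

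H3K4me1, monomethylation of lysine 4 of histone H3, was profiled by CUT&RUN, in which an antibody tethers a protein A-MNase fusion that cuts out the bound chromatin for sequencing. MLL3 and MLL4 are the methyltransferases that place much of this mark at enhancers. The double knockout (DKO) carried MLL3KO and MLL4KO alleles, and its control, here the floxed line, carried MLL3KO with MLL4fl, so that both lacked MLL3 and their comparison concerns MLL4. The dCD cells carried CD alleles of both genes, which stand for catalytically dead enzymes, and their control was wild type (WT). The labels give the line R1 for dCD and WT cells and no line for DKO and floxed cells, and they do not say whether a line is 1 clone. Formative cells were taken 63 h after LIF and 2i were withdrawn, and naive cells carry no such treatment. Each of the 8 groups had 2 H3K4me1 libraries from independent cultures, per the series' design, but the table holds 1 pooled level per group. No spread between replicates can be computed from it, so differences between genotypes are given by size with no test. A locus was counted at a mean difference of 1.5-fold over its regions and a single region at 2-fold.

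Germ cells of the mouse arise from the epiblast, to which formative cells are held to be close, and most genes of the later germ line are silenced there by promoter DNA methylation and repressor complexes. Prdm1 (BLIMP1) encodes a transcription factor that starts the primordial germ cell programme, and Nanos3 an RNA-binding protein needed for the survival of those cells. Ddx4 (VASA) encodes an RNA helicase of germ granules, Dazl an RNA-binding translational regulator, and Stk31 a Tudor-domain protein of the testis. H3K4me1 commonly covers enhancers and the flanks of active promoters, where H3K4me3 takes the centre.

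Median normalized reads per region ran from 29.6 to 31.6 in the 4 mutant groups and from 35 to 39.2 in the 4 control groups. Median levels therefore lay lower in mutants, by −0.21 on the log2 scale in both states for DKO minus floxed, and by −0.40 in formative and −0.35 in naive cells for dCD minus WT. Values relative to the other regions are given below where this matters. Among marker loci, in WT formative minus WT naive cells, 6 of 9 naive markers were at least 1.5-fold lower, 3 of 7 formative markers were higher, and so were 5 of 6 fibroblast markers. Of 8 primordial germ cell markers, among them the 5 loci, 1 was lower and 0 higher. The part of feeder cells in any result was not tested, and in bulk chromatin fewer cells carrying a mark and less of it per cell cannot be told apart. The labels name the H3K4me1 antibody by different catalogue numbers in 2 fields, and the number in the protocol is one sold against H3K27ac, so the mark is named here as labelled.

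The 5 loci differed in how they carried the mark. Prdm1 lay in a dense array of H3K4me1 with a median of 55.3 normalized reads per region in naive WT cells, and Nanos3 under 1 broad region of 9783 bp with 394.3 reads. Ddx4, Dazl and Stk31 had few and mostly weak regions, with medians of 21.1, 19.2 and 26.7 reads in naive WT cells. In each locus 1 region covered a start site of the gene. CpG density in these 5 regions was 78.7 per kb at Ddx4, 61.9 at Dazl, 60.0 at Stk31, 25.6 at Prdm1 and 9.40 at Nanos3, whereas the other 33 regions held between 2.10 and 20 per kb. These regions ran from 966 bp at Stk31 to 9783 bp at Nanos3, with 5860 bp at Prdm1, and a wide region can hide a denser start site. By region, the Ddx4, Dazl and Stk31 start sites lay in CpG-rich sequence, and the Nanos3 start site did not.

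The upstream sequences of Ddx4, Stk31 and Nanos3 show that contrast, with the 250 bases before the start site taken from RefSeq (build GRCm38.p6), written 5′ to 3′ on the gene's strand, and CpG dinucleotides in capitals. Among the 5 start-site regions, those of Ddx4 and Stk31 had the largest positive differences in DKO cells and that of Nanos3 the most negative. The Ddx4 window is chr13:112652311-112652560 on the minus strand, the Stk31 window chr6:49395289-49395538 on the plus strand, and the Nanos3 window chr8:84176553-84176802 on the minus strand.
Ddx4: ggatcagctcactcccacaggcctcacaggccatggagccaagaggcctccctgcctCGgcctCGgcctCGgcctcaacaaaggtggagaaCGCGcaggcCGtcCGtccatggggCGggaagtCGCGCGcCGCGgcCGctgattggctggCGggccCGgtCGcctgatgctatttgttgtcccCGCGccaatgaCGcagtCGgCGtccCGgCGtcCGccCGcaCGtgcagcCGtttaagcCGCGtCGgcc
Stk31: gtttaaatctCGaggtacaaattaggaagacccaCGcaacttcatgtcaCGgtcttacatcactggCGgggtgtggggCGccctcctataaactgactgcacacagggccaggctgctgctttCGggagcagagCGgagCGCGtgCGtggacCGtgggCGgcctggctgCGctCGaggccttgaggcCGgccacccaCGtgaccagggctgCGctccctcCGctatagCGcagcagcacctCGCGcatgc
Nanos3: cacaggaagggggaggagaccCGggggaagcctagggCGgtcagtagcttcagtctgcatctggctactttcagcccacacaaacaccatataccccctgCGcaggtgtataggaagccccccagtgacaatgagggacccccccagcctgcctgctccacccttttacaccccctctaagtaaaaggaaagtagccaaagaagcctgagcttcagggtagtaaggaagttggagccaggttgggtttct
The Ddx4 window held 31 CpGs, more than 95.1% of 27025 RefSeq windows of this length. Stk31 held 21 in the first of its 2 start sites, more than 83.9% of windows, and Nanos3 held 3, more than 29.6%. Dazl held 20, more than 82.3% of windows, and Prdm1 15, more than 72.5%. Short motifs of factors that recruit repressors to germ line promoters were searched on both strands, the E2F core GCGGGA and the E-box CACGTG. Ddx4 held the E2F core at position −136 and the E-box at −29 from the start site. Stk31 held the E-box at −55, and neither motif was in the windows of Prdm1, Nanos3 or Dazl. Of all windows, 16.9% held the E2F core, 6.05% the E-box and 1.47% both. A match is a description of these letters and shows no binding.

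In formative DKO cells against formative floxed cells, H3K4me1 was lower at Prdm1 and Dazl and higher at Ddx4. The locus means were −0.59 at Prdm1, −0.33 at Nanos3, 1.01 at Ddx4, −0.59 at Dazl and 0.03 at Stk31 on the log2 scale. That put 2 of 5 loci at least 1.5-fold lower and 1 higher, where 14.2% of all loci were lower and 13.6% higher. Ddx4, at 2.01-fold, lay above 96.7% of all loci. Prdm1 and Dazl stood at 1.5-fold, on the threshold itself. With each group centred on its median level, 0 of the 5 were lower and Ddx4 alone stayed higher, while 8.75% of all loci were lower and 23.8% higher.

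In naive DKO cells against naive floxed cells, Prdm1, Nanos3 and Stk31 were lower and no locus was higher by 1.5-fold. The locus means were −0.79 at Prdm1, −0.86 at Nanos3, 0.23 at Ddx4, 0.23 at Dazl and −0.71 at Stk31. That is 3 of 5 loci lower, where 16.3% of all loci were lower and 7.58% higher. After centring, Nanos3 alone stayed past 1.5-fold, with 8.55% of all loci lower and 15.9% higher.

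The dCD cells, set against WT in separate libraries, also had Ddx4 as the highest of the 5 loci in the formative state and Nanos3 as the lowest in the naive state. In the formative state the locus means were −0.70 at Prdm1, −0.70 at Nanos3, 0.72 at Ddx4, −0.41 at Dazl and −0.23 at Stk31, so that 2 were lower and 1 higher, where 17% of all loci were lower and 7.97% higher. In the naive state they were −0.70 at Prdm1, −1.11 at Nanos3, −0.03 at Ddx4, 0.53 at Dazl and −0.40 at Stk31, with 2 lower and 0 higher, where 15.2% of all loci were lower and 4.68% higher. After centring, the formative count was 0 lower and 1 higher (6.74% and 26.4% of all loci), and the naive count 1 lower and 1 higher (4.26% and 16.1%). Prdm1 lay below 0 in all 4 mutant comparisons, and Ddx4 lay past 1.5-fold higher in both formative ones. Relative to the median of all regions, Prdm1 was at −0.46 and −0.61 in formative and naive DKO cells and at −0.42 and −0.41 in formative and naive dCD cells.

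**Figure D1:**
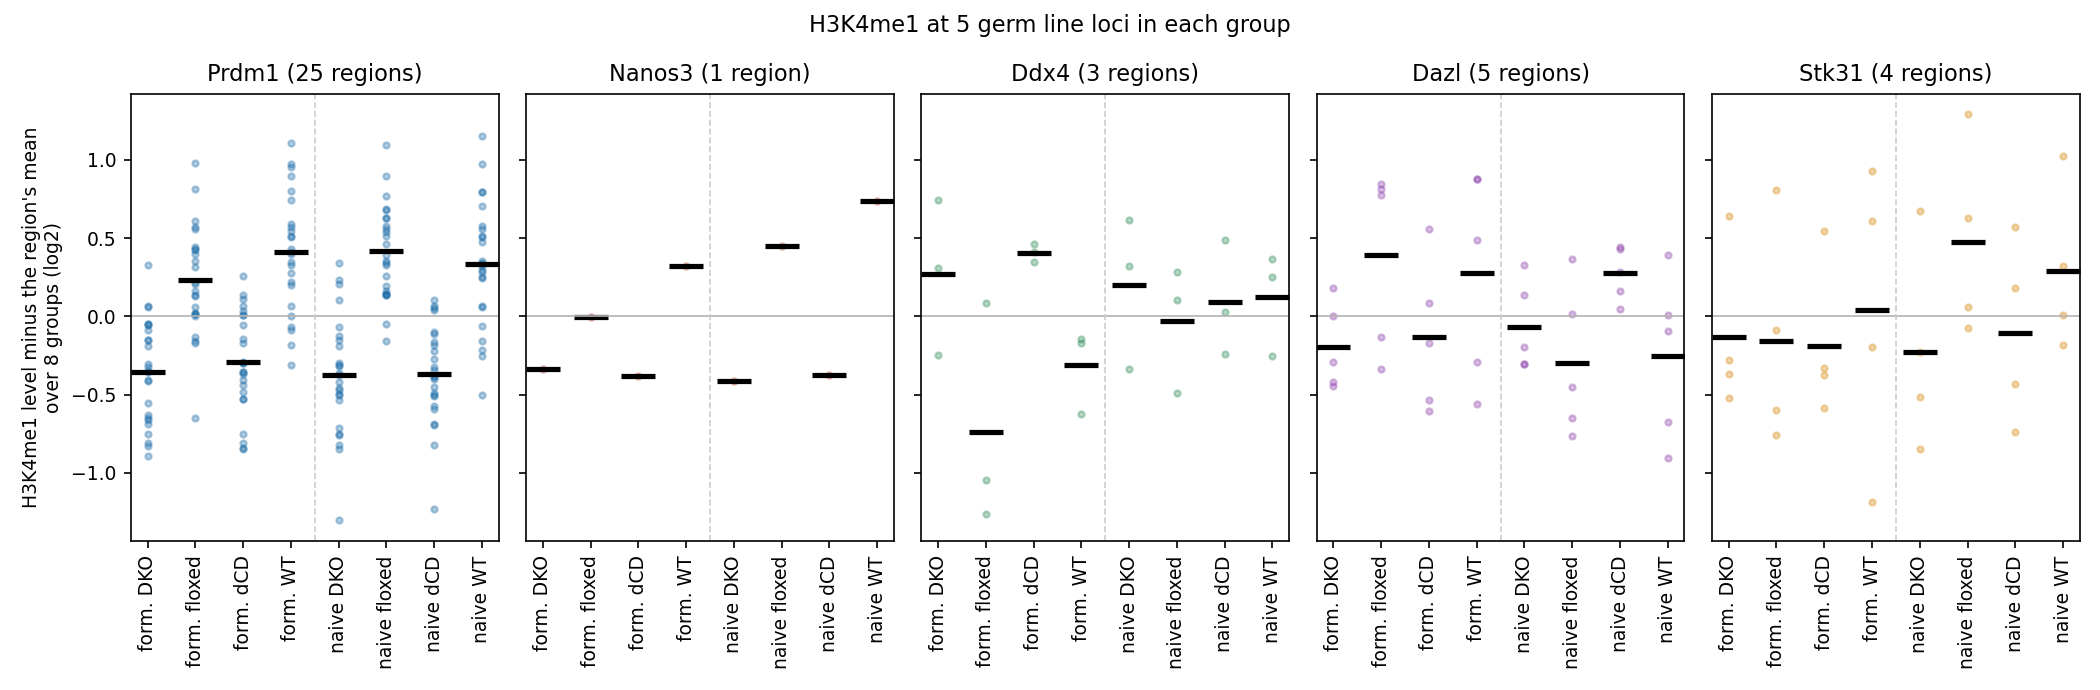
H3K4me1 level of each region minus that region's mean over the 8 groups (log2), for 5 loci; points are regions, black bars the locus mean, with formative groups left and naive groups right of the dashed line. Prdm1 means lie between −0.38 and −0.29 in the 4 mutant groups and between 0.23 and 0.42 in the 4 controls, whereas Ddx4 is lowest in formative floxed cells at −0.74.

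Averaged over each locus, the floxed line itself differed little from WT. None of the 5 was 1.5-fold apart in either state, where 5.28% of all loci were lower and 0.692% higher in formative cells, and 5.35% were lower and 1.66% higher in naive cells. The largest locus difference was at Ddx4 in formative cells, −0.43, and Nanos3 followed with −0.33. Single regions differed more, although 0 of the 38 were 2-fold apart in either state. In formative cells Ddx4 stood at −0.87 in its start-site region, −0.64 at 35.1 kb and 0.23 at 33.8 kb. The first 2 are also the regions with the largest DKO minus floxed differences at Ddx4. Against chromosome 8, whose median difference was −0.35 in formative and −0.45 in naive cells, Nanos3 stood at 0.02 and 0.16. By locus mean, the MLL3-null control was thus close to WT at the 5 loci, within the size used here.

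Region by region, both mutants mostly differed from their controls in the same direction. Of the 38 regions, 30 were below 0 in formative and 30 in naive DKO minus floxed cells, where 56.2% and 59.3% of all regions were, and 28 and 27 in formative and naive dCD minus WT cells, where 64.2% and 67.1% were. Prdm1 carried much of this. Of the 13 regions at the other 4 loci, 8 and 7 were below 0 in formative and naive DKO cells, and 7 and 4 in formative and naive dCD cells. Of the 38 regions, 27 were lower in formative DKO cells than in floxed cells and also lower in formative dCD cells than in WT cells, 7 were higher in both and 4 differed in sign. In naive cells 27 were lower in both, 8 higher in both and 3 opposite. Among all regions 49.2% were lower and 28.8% higher in both formative mutants, and 50.4% were lower and 24.1% higher in both naive mutants. Agreement in sign was thus common over all regions. Both mutant comparisons rest on pooled columns with no shared library, and the regions of 1 locus are not independent of each other.

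At 2-fold, 10 of the 38 regions were lower and 3 higher in formative DKO cells (16.7% and 6.47% of all regions), and 14 were lower and 0 higher in naive DKO cells (15.9% and 4.36%). In formative dCD cells 10 were lower and 2 higher (20.1% and 2.59% of all regions), and in naive dCD cells 11 were lower and 1 higher (13.9% and 1.55%). Prdm1, with 25 of the 38 regions, held 7 of the 10 lower by 2-fold in formative and 12 of the 14 in naive DKO cells, and 7 of 10 in formative and 8 of 11 in naive dCD cells.

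The regions over start sites went against the rest. In formative DKO minus floxed cells, 4 of the 5 start-site regions lay above 0, with a median of 0.34, while 29 of the other 33 lay below 0, with a median of −0.61. In formative dCD minus WT cells the same counts were 4 of 5, with a median of 0.58, and 27 of 33, with a median of −0.74. In naive cells, start-site medians were 0.39 for DKO and 0.36 for dCD cells, and those of the other regions were −0.65 and −0.70. Nanos3, with the CpG-poor start site, was the exception in all 4 comparisons, and Dazl was below 0 in naive DKO cells.

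This split by position was general in the table. All 10671 regions within 1 kb of a start site had medians of 0.40 and 0.38 for formative and naive DKO minus floxed cells and 0.47 and 0.41 for formative and naive dCD minus WT cells, with 76.8%, 76.6%, 77.5% and 77.4% of them above 0. Other regions had medians of −0.17 and −0.22 for formative and naive DKO and −0.33 and −0.32 for formative and naive dCD cells. The 2 splits are not the same. Of the 5 start-site regions, 3 are centred within 1 kb, while those of Prdm1 and Nanos3, centred at 1.5 and 4.7 kb, count among the other regions here. The 33 other germ line regions lay lower than that, but without the Prdm1 regions the remaining 9 had medians of −0.34 and −0.04 for DKO and −0.40 and 0.04 for dCD cells in the formative and naive states. CpG content moved with the difference as well. Among regions beyond 1 kb split into 4 equal classes by CpG density, medians in formative DKO minus floxed cells were −0.78, −0.38, −0.10 and 0.35 from the poorest to the richest class. The part of CpG content in the values of the 5 loci was not tested.

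**Figure D2:**
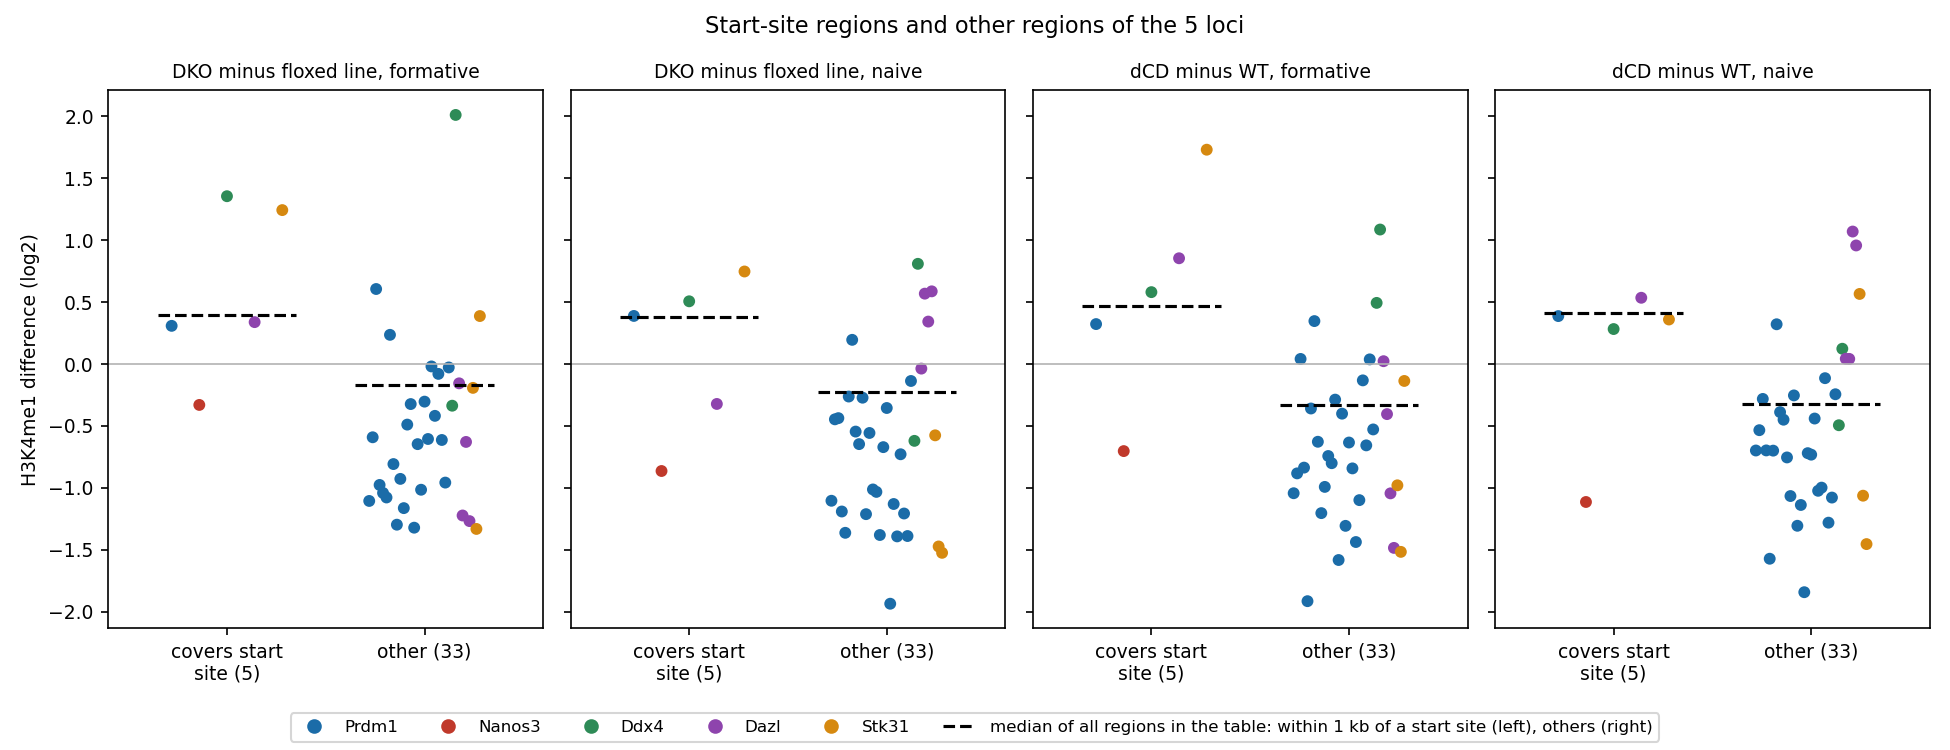
H3K4me1 difference (log2) of the 5 regions that cover a start site and of the 33 other regions, by locus colour, in 4 comparisons; dashed lines are medians over all regions of the table within 1 kb of a start site (left) and beyond it (right). In formative DKO minus floxed cells 4 of 5 start-site regions lie above 0 and 29 of 33 others below it. The start-site regions of Prdm1 and Nanos3 are centred beyond 1 kb.

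Prdm1 carried the most H3K4me1 of the 5, and most of its regions were lower in mutants. Of its 25 regions, 22 were below 0 in formative and 23 in naive DKO cells against floxed cells, and 21 and 23 were below 0 in formative and naive dCD cells against WT cells. Summed over the locus, normalized reads were 1330 in formative DKO cells, against 1868 in formative floxed cells, and 1326 in formative dCD cells, against 2069 in formative WT cells. In naive cells they were 1392 in DKO, against 2025 in floxed cells, and 1385 in dCD, against 1932 in WT cells. All 4 mutant sums lay below all 4 control sums. How many of all loci had such an order was not counted. Median reads per region over all regions had the same order, from 29.6 to 31.6 in mutant groups and from 35 to 39.2 in control groups.

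Higher in all 4 mutant comparisons were 2 regions, at 1.5 and −24.6 kb. The first covers 3 of the gene's start sites (chromosome 10, 44454365 to 44460224), and the table calls it intronic. It held 256.4 reads in formative DKO cells, against 205.8 in floxed cells, and 243.6 in formative dCD cells, against 193.5 in WT cells. In the naive state it held 239.6 reads in DKO, against 181.5 in floxed cells, and 186.8 in dCD, against 141.2 in WT cells. Its differences were 0.31, 0.39, 0.32 and 0.39, in formative and naive DKO and formative and naive dCD cells. They lay close to the medians of all regions centred within 1 kb of a start site, although its own centre is further out. The adjacent intronic region, centred 5.6 kb from the start site, went the other way. It had 24.8 reads in formative DKO cells, against 56.1 in floxed cells, and 28.1 in formative dCD cells, against 47.3 in WT cells. In naive cells it had 18.6 in DKO, against 43.8 in floxed cells, and 17.7 in dCD, against 37.7 in WT cells. Mutants and controls did not overlap in it, and the share of all regions for which this holds was not counted. The group medians over all regions had the same order.

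The largest differences at Prdm1 lay away from the start site, on both sides. The most negative in formative DKO cells was centred 23.9 kb downstream, beyond the gene's end, with 15.1 reads, against 38.6 in floxed cells, a difference of −1.32. The most negative in naive DKO cells was at 32.1 kb, with 4.4 reads, against 17.2 in floxed cells, or −1.93. So few reads leave a wide counting error, and no interval is given because the values are normalized reads. The most positive in formative DKO cells was at −42.0 kb, 0.61, where naive DKO cells had −0.44. The region at −24.6 kb was higher in both mutants in both states, by 0.24 and 0.20 in formative and naive DKO and by 0.35 and 0.32 in formative and naive dCD cells. The regions within 50 kb upstream lie within a longer Prdm1 transcript in the GENCODE annotation, although the table lists them as intergenic. At the edge of the window, the region at 49.2 kb was the last inside and the region at −54.9 kb the first outside.

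**Figure D3:**
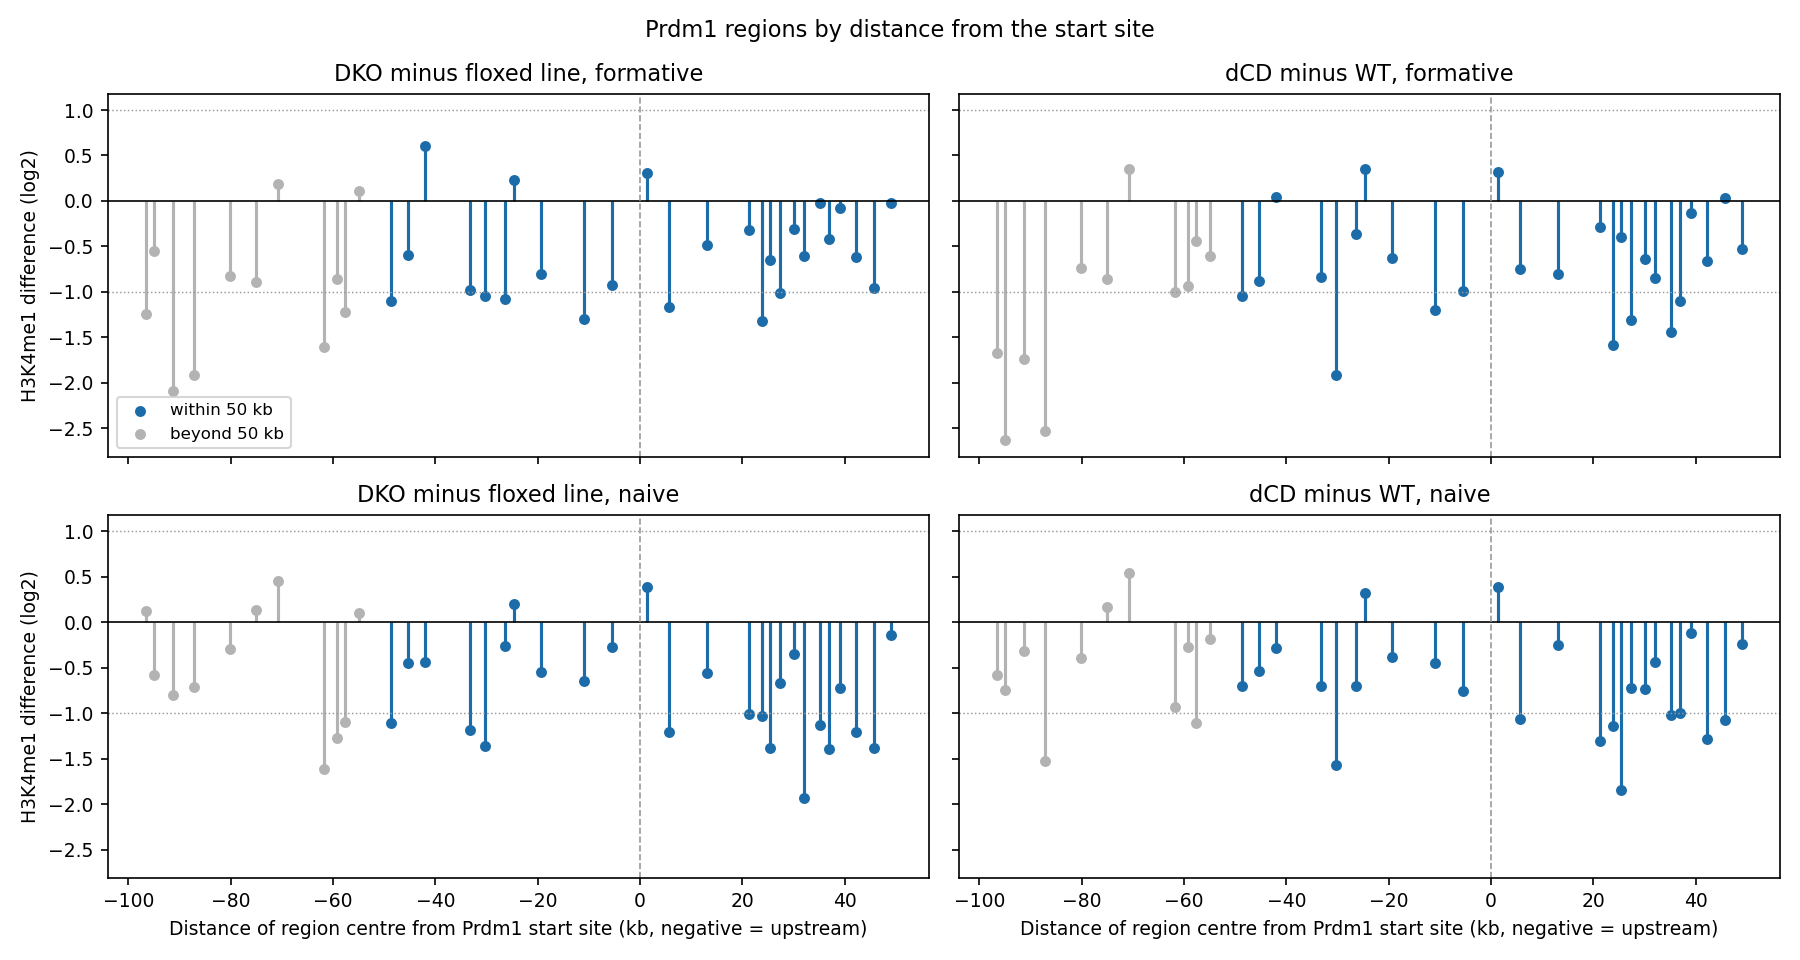
H3K4me1 difference (log2) of each Prdm1 region against the distance of its centre from the start site in kb, for DKO minus floxed and dCD minus WT cells in both states; blue regions lie within 50 kb, grey ones beyond, and dotted lines mark 2-fold. The region at 1.5 kb stands above 0 in all 4 panels, and 22 of 25 blue regions lie below 0 in formative DKO minus floxed cells.

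Nanos3 had a single broad region (chromosome 8, 84166980 to 84176762), exonic in the table, which covers 1 of the 2 annotated Nanos3 start sites and overlaps the neighbouring gene 4930432K21Rik. Reads over it cannot be divided between the 2 genes. It held 176.9 reads in formative DKO cells, against 227.4 in floxed cells, and 171.3 in formative dCD cells, against 290.8 in WT cells. In naive cells it held 166.7 in DKO, against 319.0 in floxed cells, and 171.9 in dCD, against 394.3 in WT cells. The 4 mutant groups lay within 166.7 to 176.9 reads, under all 4 controls, an order whose share among all regions was not counted. The group medians over all regions also lay lower in every mutant than in every control. Against chromosome 8, whose medians were 0.02 and 0.00 for formative and naive DKO minus floxed cells, Nanos3 stood at −0.35 and −0.87. For dCD minus WT cells the chromosome medians were −0.45 and −0.57 in the formative and naive states, and Nanos3 stood at −0.25 and −0.54 from them. Since the chromosome 8 median also lay below 0 in floxed minus WT cells, both comparisons against WT carry a shift of the whole chromosome. Against that median the Nanos3 value in dCD minus WT cells was under 1.5-fold in both states.

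Ddx4 was the locus that was higher in formative mutants. Its start-site region (chromosome 13, 112651591 to 112652606) covers both annotated starts and had 18.5 reads in formative DKO cells, against 7.1 in floxed cells, and 19.8 in formative dCD cells, against 13.2 in WT cells. In naive cells it had 22.8 in DKO, against 16 in floxed cells, and 15.2 in dCD, against 12.4 in WT cells. An intronic region at 35.1 kb had 27.5 reads in formative DKO cells, against 6.7 in floxed cells, and 22.5 in formative dCD cells, against 10.5 in WT cells. Its difference of 2.01 in formative DKO cells was the largest positive value of the 38 regions in these 4 comparisons. In naive cells the same region had 20.5 reads in DKO, against 11.6 in floxed cells, and 23.0 in dCD, against 21.1 in WT cells. The third region, also intronic at 33.8 kb, had 17.6 reads in formative DKO cells, against 22.4 in floxed cells, and 26.9 in formative dCD cells, against 19.0 in WT cells. Its naive values were 16.5 in DKO, against 25.7 in floxed cells, and 17.7 in dCD, against 25.1 in WT cells.

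Formative floxed cells had the fewest reads at Ddx4. Summed over 3 regions, formative DKO cells had 63.6, formative floxed cells 36.1, formative dCD cells 69.2 and formative WT cells 42.7, while the naive groups ran from 53.3 to 59.8. The formative mutants thus held about as many reads as the naive groups or more, and both formative controls held fewer. All these regions are weak, and counting error and culture variation cannot be separated in pooled values.

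Dazl had 4 intergenic regions upstream and 1 region (chromosome 17, 50292144 to 50293532) over 1 of its 6 annotated start sites. The start-site region had 24.5 reads in formative DKO cells, against 19.3 in floxed cells, and 36.1 in formative dCD cells, against 19.8 in WT cells. In naive cells it had 19.7 in DKO, against 24.7 in floxed cells, and 33.3 in dCD, against 22.8 in WT cells. It did not reach the 250 bases before the RefSeq start. The upstream regions at −15.9 and −24.8 kb passed the authors' FDR between the states in WT cells, as given below. Others differed in size without passing it: −36.3 kb by 1.54 in floxed and 0.48 in WT cells, and −37.9 kb by −0.97 in dCD and −0.95 in WT cells, formative minus naive.

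Against chromosome 17, whose medians for formative and naive DKO minus floxed cells were −0.36 and −0.50, the Dazl locus stood at −0.22 and 0.72. For dCD minus WT cells the medians were −0.19 and −0.25 in the formative and naive states, and Dazl stood at −0.22 and 0.78. Set against its own chromosome, Dazl was thus past 1.5-fold higher in both naive mutants and under 1.5-fold in both formative ones. With every region set against its chromosome, 14.5% of all loci were that much higher in naive DKO and 12.8% in naive dCD cells. The locus reached −37.9 kb inside the window, and the next region out lay at −54.1 kb.

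Stk31 held opposite differences within 1 gene. Its start-site region (chromosome 6, 49395156 to 49396121) covers 2 of 3 annotated starts and had 34.4 reads in formative DKO cells, against 14.4 in floxed cells, and 32.2 in formative dCD cells, against 9.6 in WT cells. In naive cells it had 35.2 in DKO, against 20.9 in floxed cells, and 24.9 in dCD, against 19.4 in WT cells. An intronic region of 6502 bp at 17 kb (49409362 to 49415863) had 69.6 reads in formative DKO cells, against 187.9 in floxed cells, and 66.1 in formative dCD cells, against 204.8 in WT cells. In naive cells it had 53.9 in DKO, against 164.6 in floxed cells, and 58.7 in dCD, against 131.8 in WT cells. Mutants and controls did not overlap in either region, with the start site higher and the intron lower in mutants. The share of all regions with such a separation was not counted. The group medians over all regions were in the order seen in the intron, lower in mutants. The intron differences of −1.33, −1.47, −1.52 and −1.06 in formative and naive DKO and formative and naive dCD cells were all past 2-fold.

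The mean over the locus hid this. Stk31 averaged 0.03 in formative DKO cells with 1 region 2-fold higher and 1 lower. A weak intronic region at 40.3 kb had 11.7 reads in formative DKO cells, against 8.8 in floxed cells, and 12.9 in naive DKO cells, against 38.2 in naive floxed cells. The region at −12.4 kb lies in an intron of the neighbour Fam221a. The last region inside the window was at 40.3 kb and the next outside at 59.5 kb.

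**Figure D4:**
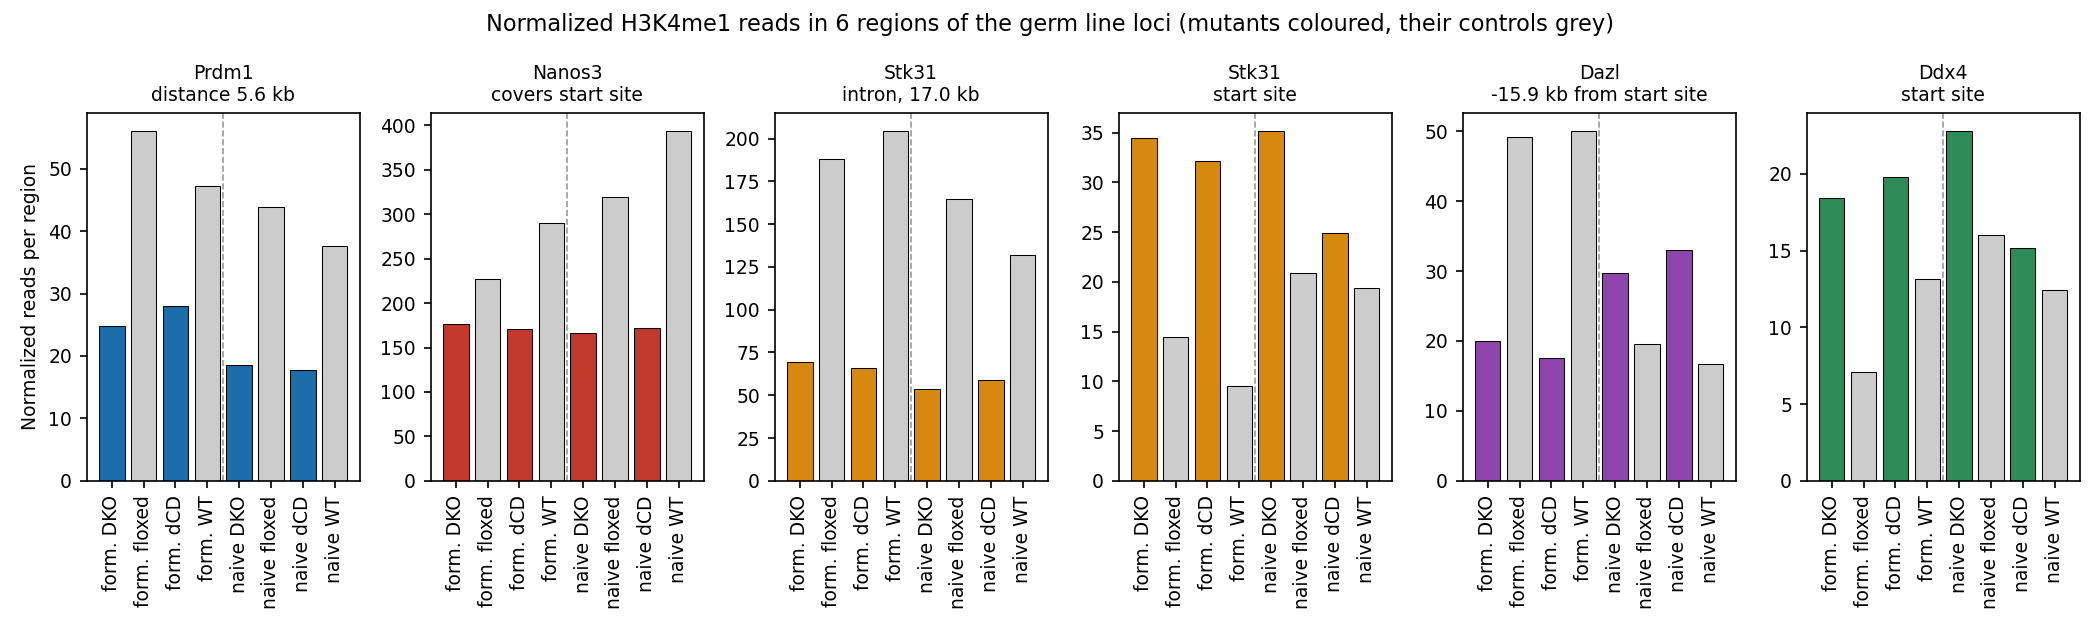
Normalized reads per region in the 8 groups for 6 regions of the 5 loci; bars start at 0, DKO and dCD bars are coloured and their floxed and WT controls are grey, with formative groups left of the dashed line. The Stk31 intron holds 69.6 and 66.1 reads in formative DKO and dCD cells, against 187.9 and 204.8 in formative floxed and WT cells.

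Between the states, the authors' deposited comparison of formative with naive WT cells supplies the test. At its FDR of 0.05, 3 of the 38 regions gained and 1 lost the mark, where 9.82% of all regions gained and 10.5% lost it. H3K4me1 rose at Dazl −15.9 kb (authors' log2 fold 1.66, FDR 0.0024) and Dazl −24.8 kb (1.84, FDR 0.032), and in the Stk31 intron at 17 kb (0.68, FDR 0.013). It fell at Prdm1 45.7 kb (−1.11, FDR 0.036). Neither count was above the share among all regions. Prdm1 −10.9 kb missed the threshold with an FDR of 0.052, and so did Nanos3 with −0.45 and an FDR of 0.060.

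At Dazl −15.9 kb formative values lay above naive ones in both controls and below them in both mutants, while at −24.8 kb formative DKO cells also lay above naive DKO cells. At −15.9 kb, formative DKO cells had 20.0 reads and naive DKO cells 29.8, while formative floxed cells had 49.1 and naive floxed cells 19.6. Formative dCD cells had 17.5 and naive dCD cells 33, while formative WT cells had 50.1 and naive WT cells 16.7. At −24.8 kb, formative DKO cells had 16.4 and naive DKO cells 11.6, formative floxed cells 25.6 and naive floxed cells 9.1, formative dCD cells 12.8 and naive dCD cells 16.2, and formative WT cells 26.7 and naive WT cells 7.6. The naive control values here are low. The difference between genotypes was not tested.

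As a locus, Dazl had a formative minus naive difference of −0.13 in DKO, 0.69 in floxed, −0.41 in dCD and 0.53 in WT cells, where the chromosome 17 medians were 0.01, −0.15, −0.03 and −0.08. Ddx4 had 0.07 in DKO, −0.71 in floxed, 0.32 in dCD and −0.43 in WT cells. Nanos3 had 0.08 in DKO, −0.46 in floxed, −0.01 in dCD and −0.42 in WT cells, where the chromosome 8 medians were −0.03, −0.07, −0.07 and −0.19. Stk31 had 0.10 in DKO, −0.64 in floxed, −0.08 in dCD and −0.25 in WT cells. At each of these loci, both controls lay on one side and both mutants nearer 0 or on the other. The share of all loci with this order was not counted. Prdm1 stayed between −0.19 and 0.07 in all 4 genotypes.

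By the 1.5-fold size, 0 of 5 loci passed in WT cells (15.1% of all loci lower, 12.8% higher), and 2 were lower and 1 higher in floxed cells (15.5% and 9.9%). In DKO cells 0 passed, where 1.03% of all loci were lower and 1.57% higher, and in dCD cells 0 passed, where 1.93% were lower and 2.6% higher. Small differences between states in the mutants were thus common to nearly all loci.

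**Figure D5:**
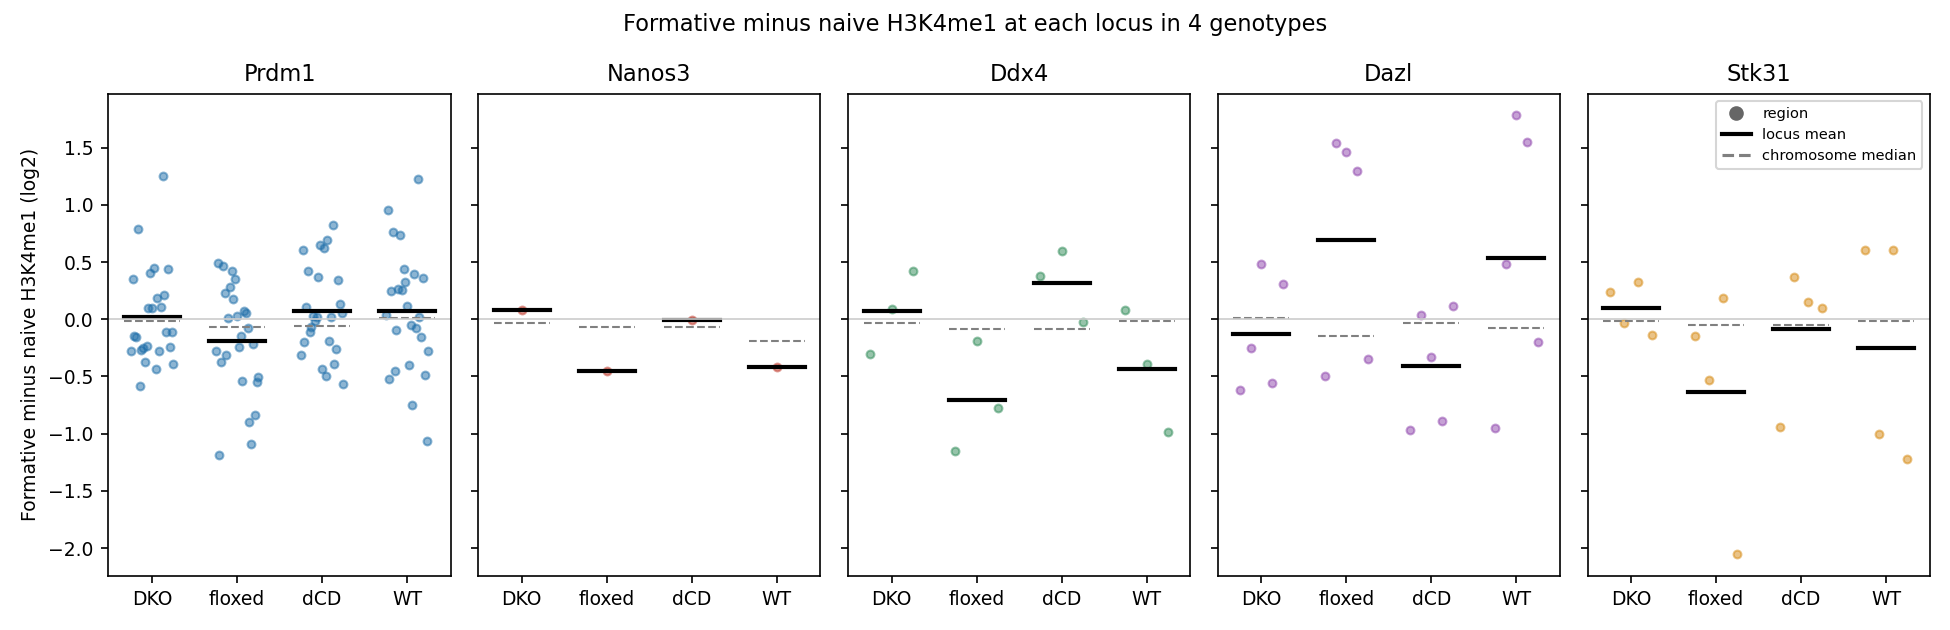
Formative minus naive H3K4me1 (log2) in 4 genotypes at each locus; points are regions, solid bars locus means and dashed bars the median of the locus's chromosome. Dazl means are 0.69 in floxed and 0.53 in WT cells and −0.13 in DKO and −0.41 in dCD cells.

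RNA and H3K27ac were read from log2 fold columns of the authors' deposited table, which rest on samples outside this series, set DKO against WT and carry no error here. In the authors' deposited table Prdm1 RNA differed by −2.34 between formative and naive WT cells and by −0.14 between formative and naive DKO cells. Between DKO and WT cells it differed by 0.52 in the formative and −1.68 in the naive state, per the authors' deposited table. Dazl RNA in the authors' deposited table differed by 1.05 between the states in DKO and −1.12 in WT cells, and by −0.92 and −3.09 between DKO and WT cells in the formative and naive states. Stk31 RNA stayed between −0.39 and 0.32 in the 4 folds of the authors' deposited table, which gives no value for Nanos3 and Ddx4. The WT gain of H3K4me1 upstream of Dazl thus came with a lower Dazl RNA fold in those other samples, and the naive DKO H3K4me1 near Dazl was not lower where its RNA was.

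For H3K27ac, a mark of active enhancers and promoters, the authors' deposited table gave a median over the 25 Prdm1 regions of −0.14 in formative and −0.78 in naive DKO minus WT cells, where all regions had −0.20 and 0.04. In the naive state 18 of the 25 were below 0, and in the formative state 14, with a formative median not lower than that of all regions. The share of all regions below or above 0 in the H3K27ac folds was not counted. At Nanos3 the authors' deposited table had −0.95 and −0.81 in the formative and naive states, and in the Stk31 intron at 17 kb −0.88 and −1.27. Nanos3, the Stk31 intron and the median Prdm1 region were thus below 0 in both marks in naive DKO cells, against different controls. Stk31 as a whole was mixed, with 2 regions below and 2 above 0 in naive H3K27ac. At its −12.4 kb region the marks differed in sign in naive DKO cells (H3K4me1 −0.58, H3K27ac 0.83). At Dazl the authors' deposited table had all 5 regions above 0 in naive DKO minus WT cells (0.62 to 4.87, median 1.97) and 2 of 5 above 0 in formative ones (median −0.47). At the 3 Ddx4 regions its values ran from −2.85 to 0.24 in the formative and from −1.57 to 5.34 in the naive state. The Ddx4 and Dazl regions are weak in H3K4me1, and these folds carry no error.

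Gene lists put the loci among other genes of the germ line, counted by the same 1.5-fold locus size beside the background shares above. The lists hold the loci themselves, Nanos3 in more than 1. Of a list of genes tied to primordial germ cell specification, 17 of 18 had a locus. The list also holds markers and other factors, such as Alpl, Sox2 and Otx2, so its counts do not stand for genes that specify these cells. In formative DKO cells 7 were lower and 0 higher (median −0.46, all loci 0.00), and in naive DKO cells 9 and 0 (median −0.61, all loci −0.11). In formative dCD cells 6 were lower and 0 higher (median −0.41, all loci −0.11), and in naive dCD cells 7 and 0 (median −0.52, all loci −0.19). The most negative in formative DKO cells were T, the brachyury factor of the primitive streak, at −0.76, Ifitm3, a membrane protein marking early germ cells, at −0.73, and Sox2, a pluripotency factor, at −0.70. In naive DKO cells they were Tfap2c, a transcription factor acting with Prdm1, at −1.04, Alpl, the alkaline phosphatase of germ cells, at −0.90, and Ifitm1 at −0.87. In WT formative minus naive cells 2 were lower and 0 higher, Prdm14, a partner of Prdm1, at −0.97 and Tfap2c at −0.72. Relative to the median of all regions, the list's median was −0.32 and −0.43 in formative and naive DKO cells and −0.13 and −0.24 in formative and naive dCD cells. The 7 lower in formative DKO cells lie on chromosomes with unlike medians. These were −0.36 for T, −0.12 for Ifitm3 and Ifitm1, −0.15 for Sox2 and −0.09 for Prdm1. Otx2 and Bmp4, at −0.66 and −0.62, lie on chromosome 14, whose median was −0.39. The list was not counted relative to chromosome medians.

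The other lists were mixed, and their medians changed sign in places when taken relative to all regions. Of germ cell RNA-binding genes, 13 of 15 had a locus, and in formative DKO cells Dazl was lower while Ddx4 and the piRNA helicase gene Mov10l1, at 0.74 in 1 region, were higher. In naive DKO cells Nanos3 and the Dazl relative Boll, at −0.61, were lower and 0 were higher. In formative dCD cells 2 were lower and 1 higher, and in naive dCD cells 2 and 0. The list's medians were −0.13 and −0.07 in formative and naive DKO and −0.13 and −0.05 in formative and naive dCD cells. Mov10l1 was also low in floxed against WT cells, at −0.83 in formative and −0.72 in naive cells.

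Of Tudor and piRNA pathway genes, 18 of 19 had a locus. In formative DKO cells 4 were lower and 2 higher, with Tdrd12, a helicase of piRNA production, at −1.13, the Tudor genes Tdrd7 at −0.78 and Tdrd5 at −0.71, and Tdrd9 at 1.02 and Tdrd1 at 0.70. In naive DKO cells 4 were lower and 2 higher, with Rnf17 at −1.33 and Asz1 at 1.13, both of germ granules. In formative dCD cells 5 were lower and 0 higher, and in naive dCD cells 0 and 1. Medians were −0.22 and −0.02 in formative and naive DKO and −0.11 in both dCD comparisons.

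Of meiosis genes, 21 of 24 had a locus, with 7 lower and 2 higher in formative DKO cells and 2 lower and 4 higher in naive DKO cells. In formative dCD cells 3 were lower and 2 higher, and in naive dCD cells 1 and 0. Sycp2, a protein of the synaptonemal complex with 1 region, stood at −1.44 in formative DKO and −1.30 in formative dCD cells, and the synaptonemal gene Syce1 at 1.25 and 0.78. Medians of the meiosis genes were −0.08 and 0.11 in formative and naive DKO and −0.22 and −0.16 in formative and naive dCD cells. Of a list of genes tied to repression of the germ line programme, 18 of 19 had a locus. The list also holds the demethylase genes Tet1 and Tet2 and the naive marker Zfp42, so its counts do not stand for repressors alone. In formative DKO cells 0 were lower and 0 higher, and in naive DKO cells 2 and 0. In formative dCD cells the counts were 0 and 1, and in naive dCD cells 2 and 1. In WT formative minus naive cells 5 of these were lower and 0 higher, with Zfp42 at −1.0, the demethylase gene Tet2 at −0.98 and the Polycomb gene Rnf2 at −0.84. Medians of this list were 0.07 and −0.40 in formative and naive DKO and −0.05 and −0.32 in formative and naive dCD cells.

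By the closeness of their values over the 8 groups, each locus had near neighbours among about 15629 genes with at least 3 regions. The closest to Prdm1 were Smtn and Slc31a2, with root mean square distances of 0.05 and 0.06 on the log2 scale. The closest were Yipf5 and Homer3 for Nanos3, at 0.08 and 0.09, and Zmpste24 and Dnah10 for Ddx4, at 0.07 and 0.10. For Dazl they were Rubie and Ccna1, a cyclin of male meiosis, at 0.09 and 0.11. For Stk31 the closest was Mir684-1, at 0.04. Over the 8 groups the 5 loci themselves ranged over 0.69 at Dazl, 0.71 at Stk31, 0.79 at Prdm1 and 1.15 at both Ddx4 and Nanos3. Each distance was small beside the range, but these genes were picked as the closest of all those compared. A small distance was therefore built into the choice and says nothing particular about these loci.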

How the data were processed

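H3K4me1 CUT&RUN was analysed in 16 libraries of mouse embryonic stem cells, 2 in each of 8 groups; 5 other libraries (IgG and MLL4) were not analysed here. The authors deposited 1 table of 186826 regions on build mm10. The submitters' processing notes name Bowtie2, SEACR, DiffBind, deepTools and Trim Galore, without versions. Per the file headers the table holds log2 levels, 1 pooled column per group, beside the log2 fold and the FDR (an adjusted p-value) of the authors' WT formative against naive comparison. It also holds the authors' log2 fold columns for RNA and H3K27ac from samples outside this series. Regions without levels were left out, which leaves 186824. A further 14 per-group columns were not used. Of the nearest-gene names, 271 had become dates.

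From the values, a deposited level equals log2 of 1 plus normalized reads times a constant over the squared region width. The constant, 22.2 on the log2 scale, was fitted on WT columns and assumed for the mutants. Raw depth per library is unknown, so no counting interval is given. Log2 differences of the regions within 50 kb were averaged to give a locus value. The limma test planned on replicates was not possible with 1 pooled column per group, so only the authors' FDR is a test. The members and gene lists were chosen with earlier results of these data known. Named regions were, for each locus, the region nearest the start site, those past FDR 0.05, and the largest and smallest DKO minus floxed difference among regions with at least 16 reads; the Prdm1 regions at 5.6, −10.9 and −24.6 kb and the Stk31 region at −12.4 kb were added after their values were seen. From each list at most 3 genes per direction were named, and the matches of a locus are the 2 genes closest to it, of which 1 is not reported here. Alternatives changed the centring, window, read minimum, pseudocount and mean. CpG content came from GRCm38 sequence, gene models from GENCODE and upstream sequences from RefSeq GRCm38.p6. Python 3.11.15, numpy 2.4.6, pandas 2.3.3, matplotlib 3.10.9 and pysam 0.24.0 were used, and scripts were tested on simulated data.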

Additional observations from a re-analysis of the deposited data

How the results depend on the processing

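No paired analysis was possible because the table holds 1 pooled column per group, and for the same reason no replicate could be left out. With groups centred on their medians, loci past 1.5-fold numbered 1 in formative DKO (3 as reported), 1 in naive DKO (3) and 1 in formative dCD cells (3). Quantile scaling gave 1, 0 and 1, and centring by chromosome gave 1 in formative DKO, 1 in formative dCD and 1 in naive dCD cells (2 as reported). A 10 kb window gave 1 in naive dCD cells, 1 against 0 in floxed minus WT formative cells, 1 against 0 in WT formative minus naive cells and 1 against 3 in the floxed transition. The median over regions gave 1 in floxed minus WT formative cells. In WT formative minus naive cells, chromosome centring and a minimum of 16 reads each gave 1, and leaving out start-site regions, an alternative chosen after seeing the data, gave 2. At an FDR of 0.01, 1 region passed against 4. The 10 kb window, which holds few regions per locus, reversed Dazl in formative DKO (0.34), Stk31 in naive DKO (0.75) and Dazl in the floxed transition (−0.35). Of the 14 values past 1.5-fold, the other settings kept every sign (11 of 11 without start-site regions), but 7 stayed past it when centred, 7 when centred by chromosome, 6 with quantile scaling and 6 with the 10 kb window. Prdm1 stayed past in 5 or 6 of 9 alternatives per comparison and Dazl in formative DKO cells in 4 of 9. Ddx4 in formative DKO cells ran from 0.84 to 1.35 and Nanos3 in naive DKO cells from −0.93 to −0.42, the last under quantile scaling; with 3 regions and 1 region, settings that choose regions repeat the same value there, so their counts say little. Pooled columns and weak regions at Ddx4, Dazl and Stk31 limit what can be resolved.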

Other observations

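The Prdm1 array of H3K4me1 went on beyond 50 kb, and is described in 3 stretches upstream, chosen after their values were seen. Between 50 and 100 kb upstream lay 11 regions, of which 4 gained the mark in formative against naive WT cells at the authors' FDR of 0.05 and 0 lost it, where 9.82% of all regions gained and 10.5% lost it. The median difference between the states there was 0.07 in DKO, 0.32 in floxed, 0.28 in dCD and 0.89 in WT cells. The region at −80.1 kb (authors' log2 fold 0.80, FDR 0.0026) had 123.4 reads in formative DKO cells, against 225.6 in floxed cells, and 134.1 in formative dCD cells, against 229.3 in WT cells. In formative DKO minus floxed cells the 11 regions had a median of −0.89 with 5 at least 2-fold lower, and in formative dCD minus WT cells −0.93 with 4, where 16.7% and 20.1% of all regions were that much lower. The stretch is not all outside the gene, since its regions from −54.9 to −61.8 kb lie in the longer Prdm1 transcript. The region at −70.7 kb, 1 of the 4 that gained the mark (FDR 0.025), covers a Prdm1 start site. It lay above 0 in all 4 mutant comparisons, at 0.19 and 0.45 in formative and naive DKO and 0.35 and 0.54 in formative and naive dCD cells.

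Between 100 and 200 kb upstream lay 4 regions. All 4 were above 0 in naive DKO minus floxed cells (median 0.68) and 3 in naive dCD minus WT cells (median 0.30), while 2 and 0 were above 0 in the formative comparisons. Of all regions, 59.3% and 67.1% were below 0 in the naive DKO and dCD comparisons, and 56.2% and 64.2% in the formative ones.

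Over 200 kb upstream lay another 11 regions, of which 2 lost the mark in formative WT cells at that FDR and 0 gained it. The median difference between the states was −0.30 in DKO and −0.95 in WT cells. All 11 were below 0 in naive DKO minus floxed cells (median −1.16) and in naive dCD minus WT cells (median −1.04), where 59.3% and 67.1% of all regions were. In each of these comparisons 6 were at least 2-fold lower, where 15.9% and 13.9% of all regions were that much lower. The formative medians of the 11 regions were −0.23 and −0.41. These regions have Prdm1 as their nearest gene in the table, and their link to it was not tested.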
